A study of Mus musculus with 14 samples.

Results

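The cells described here were newborn neurons of the caudal rhombic lip in E14.5 mouse hindbrain, chosen by the number of unique molecular identifiers (UMIs) that each cell held for 7 genes. A cell was taken if it had at least 2 UMIs of Nhlh1, at least 2 of Barhl1, at least 1 of Pax6, at least 2 of Hoxb2, Hoxb3 and Hoxb4 together and at most 14 of Mapt. Among 49696 cells with at least 1000 genes and under 10% mitochondrial UMIs, 2817 met the rule, out of 150188 barcodes in the whole series. They are called Nhlh1+ migrating neurons below.

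The study sorted tdTomato-labeled, DAPI-negative cells of the Atoh1 lineage from whole hindbrains and sequenced them with the 10x Genomics 3′ platform. Control embryos were Atoh1Cre/+; Rosa lsl-tdTomato/+ and Atoh1S193A/- embryos were Atoh1Cre/S193A; Rosa lsl-tdTomato/+, all on a C57BL/6J background. The Cre allele replaces the coding region of Atoh1, so the controls also had 1 functional copy only, and S193A is a hypomorphic mutation of a phosphorylated serine. Each of the 3 libraries per genotype came from 1 embryo, and a mutant embryo and its littermate control carry the same replicate number. The counts do not show from which Atoh1 allele a transcript came. The sort was for cells that had once expressed Cre from the Atoh1 locus, and its purity was not tested.

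Precerebellar neurons are born from Atoh1+ progenitors of the caudal rhombic lip, the dorsal edge of the hindbrain, and those of the pontine nuclei (PN) travel along the anterior extramural stream (AES) to the ventral pons. On the way they express bHLH factors such as Nhlh1 and Nhlh2, the homeobox factor Barhl1 and the receptor Robo3, which lets axons and cell bodies approach or cross the midline. Hox genes of the posterior hindbrain set them apart from granule neurons, the other large product of the Atoh1 lineage, which arise from the Hox-negative cerebellar rhombic lip.

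The promoters of 3 marker genes and of Rab15, the gene with the strongest call between genotypes, are shown because Atoh1, Nhlh1 and Nhlh2 belong to a protein family that binds the E-box CANNTG. Each sequence runs from 250 bases before the RefSeq transcription start to 50 bases after it (GRCm38.p6, 5′ to 3′ on the strand of the gene), with E-boxes in capitals. For Rab15 the most upstream of 4 listed starts was taken.
Nhlh1, chr1:172057547-172057846, minus strand: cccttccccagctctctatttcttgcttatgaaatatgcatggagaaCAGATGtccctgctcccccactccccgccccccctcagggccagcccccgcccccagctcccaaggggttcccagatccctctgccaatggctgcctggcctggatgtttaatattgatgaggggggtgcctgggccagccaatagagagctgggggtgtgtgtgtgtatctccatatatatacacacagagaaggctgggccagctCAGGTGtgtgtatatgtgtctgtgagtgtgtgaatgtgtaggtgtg
Nhlh2, chr3:102009895-102010194, plus strand: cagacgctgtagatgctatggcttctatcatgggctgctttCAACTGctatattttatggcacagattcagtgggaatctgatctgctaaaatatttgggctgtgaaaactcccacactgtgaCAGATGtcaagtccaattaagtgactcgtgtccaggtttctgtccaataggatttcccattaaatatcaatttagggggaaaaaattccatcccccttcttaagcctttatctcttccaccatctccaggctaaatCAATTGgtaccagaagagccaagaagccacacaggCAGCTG
Robo3, chr9:37433126-37433425, minus strand: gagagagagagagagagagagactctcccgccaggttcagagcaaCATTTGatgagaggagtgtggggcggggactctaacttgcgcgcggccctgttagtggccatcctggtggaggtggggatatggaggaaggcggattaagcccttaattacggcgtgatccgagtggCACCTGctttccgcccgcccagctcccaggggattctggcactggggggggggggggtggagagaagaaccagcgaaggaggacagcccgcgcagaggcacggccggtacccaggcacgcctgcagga
Rab15, chr12:76822475-76822774, minus strand: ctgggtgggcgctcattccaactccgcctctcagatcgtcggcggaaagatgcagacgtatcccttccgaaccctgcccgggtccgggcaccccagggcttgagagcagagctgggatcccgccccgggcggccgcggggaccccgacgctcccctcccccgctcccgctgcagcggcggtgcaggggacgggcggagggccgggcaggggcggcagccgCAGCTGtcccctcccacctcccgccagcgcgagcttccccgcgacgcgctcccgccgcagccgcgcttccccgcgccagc
These windows held 2, 4, 2 and 1 E-boxes, in that order. CAGCTG, which reads the same on both strands, was found in the windows of Nhlh2 and Rab15, and CAGATG (either strand) in those of Nhlh1 and Nhlh2. Of 32851 promoters of this length, 72.3% held an E-box, 16.3% held CAGCTG and 17.2% held CAGATG, and both of these are themselves E-boxes. A match is a match of letters, not evidence of binding.

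Each library gave between 380 and 570 Nhlh1+ migrating neurons. Controls 1, 2 and 3 held 427, 570 and 512 of them, or 6.66%, 6.43% and 5.27% of filtered cells. The Atoh1S193A/- libraries held 380, 452 and 476, or 4.78%, 5.44% and 5.62%. The share was 6.12% ± 0.747 in controls and 5.28% ± 0.444 in Atoh1S193A/- embryos (SD, n = 3 each), and the genotypes overlapped (difference -0.841 percentage points, exact two-sided permutation test p = 0.3, where 0.1 is the smallest p that 3 against 3 allows). Because the rule counts UMIs, fewer such cells and less RNA of a rule gene per cell cannot be told apart. With mitochondrial UMIs under 5% the shares were 8.16% and 6.24% and did not overlap (exact permutation p = 0.1), with 6.48% in control 3 and 6.40% in Atoh1S193A/- library 3. Control 1 was at 10.2%. This filter left 3511 of its 6407 filtered cells, against 7474 of 8303 in Atoh1S193A/- library 2, so the cells that the shares are taken of changed unevenly. With the rule applied to cells thinned to 10000 UMIs the shares were 5.12% and 4.04% and did not overlap either (exact permutation p = 0.1).

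The median cell held between 16486.5 and 21193 UMIs, depending on the library, so a gene at 1 UMI in such a cell was near the limit of detection. Levels below are UMIs summed over the cells of a library and divided by their total, as counts per 1000000 UMIs (CPM). The rule cut through a continuous distribution for Nhlh1, with 637 members at its limit of 2 UMIs and 792 cells at 1 UMI that met all other conditions. For the other conditions, members at the limit and cells just outside it numbered 46 and 44 for Barhl1, 175 and 174 for Pax6, 25 and 113 for the Hoxb sum and 73 and 69 for Mapt. Only 3 member barcodes were found in more than 1 library. Doublets were not removed, and 166 of the 2817 cells lay among the 7.5% highest Scrublet doublet scores.

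The label was checked against markers that the rule did not use. Nhlh2, the close relative of Nhlh1, was at 425.9, 419.5 and 409.9 CPM in controls and at 365.0, 433.8 and 360.8 CPM in Atoh1S193A/- libraries. Robo3 was at 304.7, 416.3 and 341.5 CPM in controls and at 338.9, 466.0 and 348.0 CPM in Atoh1S193A/- libraries. Both genes were present in all 6 libraries, and the genotypes overlapped for each. The proliferation marker Mki67 was between 4.07 and 22.0 CPM. The summed level of 8 microglial genes was 0.0858 to 1.23 CPM, against 0.687 to 30.1 CPM in all other E14.5 cells, although none of the 8 was at 0 in every library. Genes of glia and radial glia were lower in members too (179 to 251 against 396 to 1018 CPM). Genes of inhibitory neurons were higher in members, at 135 to 273 CPM against 63 to 118 CPM in the other cells. Genes of the rostral rhombic lip and cerebellum overlapped (572 to 794 and 746 to 913 CPM), as did those of vessels, meninges and red blood cells. The rule does not ask where a cell lay, so neurons of the AES and of other precerebellar streams are pooled.

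Compared with cells that missed only 1 condition, Nhlh1+ migrating neurons lay on average between cells with few Nhlh1 UMIs, higher in Atoh1, and Mapt-high neurons. These groups were made by measured values, so what follows is a description without a test. In 2525 cells with fewer than 2 Nhlh1 UMIs, Hes5, a Notch effector of progenitors, averaged 525 CPM over the 6 libraries against 62.4 CPM in members, and Mki67 averaged 71.5 CPM against 10.7 CPM. Robo3 averaged 96.0 CPM there against 369 CPM in members, and Nhlh2 averaged 140 CPM against 402 CPM, each higher in members in 6 of 6 libraries. Atoh1 itself was at 425 CPM in those cells, 231 CPM in members and 71.4 CPM in 867 cells with more than 14 Mapt UMIs. Members with 5 or more Atoh1 UMIs (1049 cells), a split made on Atoh1 itself, averaged 479 CPM of it. The study marks postmitotic intermediate progenitors by high Atoh1 and migrating neurons-1 by low Atoh1, so the name may not hold for all members. In the 867 Mapt-high cells the growth cone protein gene Gap43 averaged 1496 CPM against 631 CPM in members, whereas Cntn2 (TAG-1), an adhesion molecule of migrating precerebellar neurons, averaged 255 CPM against 488 CPM. Both differences held in 6 of 6 libraries.

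Cells that met all conditions except the Hoxb sum were of a different kind. In these 1099 cells Crabp1, which binds retinoic acid in the cytosol, averaged 19.3 CPM against 5615 CPM in members. Robo3 averaged 23.2 CPM against 369 CPM. Neurod1 and Eomes, transcription factors expressed in the cerebellar lineage, averaged 1145 and 155 CPM in the Hoxb-low cells against 55.3 and 7.18 CPM in members, in the same direction in 6 of 6 libraries. The netrin receptor gene Unc5c was likewise lower in members, at 29.7 CPM against 348 CPM.

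Inside the population, Mapt UMIs ordered the cells from an end high in Atoh1 and Notch effectors to a neuron-like end. With 0 to 2, 3 to 6 and 7 to 14 Mapt UMIs (1302, 753 and 762 cells), Atoh1 averaged 367, 159 and 83.2 CPM. Hes5 averaged 102, 36.3 and 24.8 CPM and Hey1, another Notch effector, 181, 85.7 and 38.0 CPM. Rassf4, Mfap4 and Gadd45g were lower at the high end as well, with Rassf4 at 363, 174 and 88.6 CPM. In the other direction went Robo3, at 242, 442 and 500 CPM, and Rgmb, a repulsive guidance molecule and BMP co-receptor, at 198, 417 and 530 CPM. The neurofilament gene Ina averaged 608, 1423 and 1987 CPM and the cell cycle inhibitor gene Cdkn1c averaged 171, 262 and 325 CPM. For every gene of this paragraph named so far, the lowest and the highest Mapt range differed in the same direction in 6 of 6 libraries. Genes of dividing cells went both ways. Cdk1 averaged 11.1 and 14.1 CPM in the lowest and highest range (higher in 5 of 6 libraries), and Cenpf 24.0 and 23.7 CPM (higher in 4 of 6). Ccnb1 averaged 8.49 and 5.58 CPM (lower in 5 of 6).

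**Figure D1:**
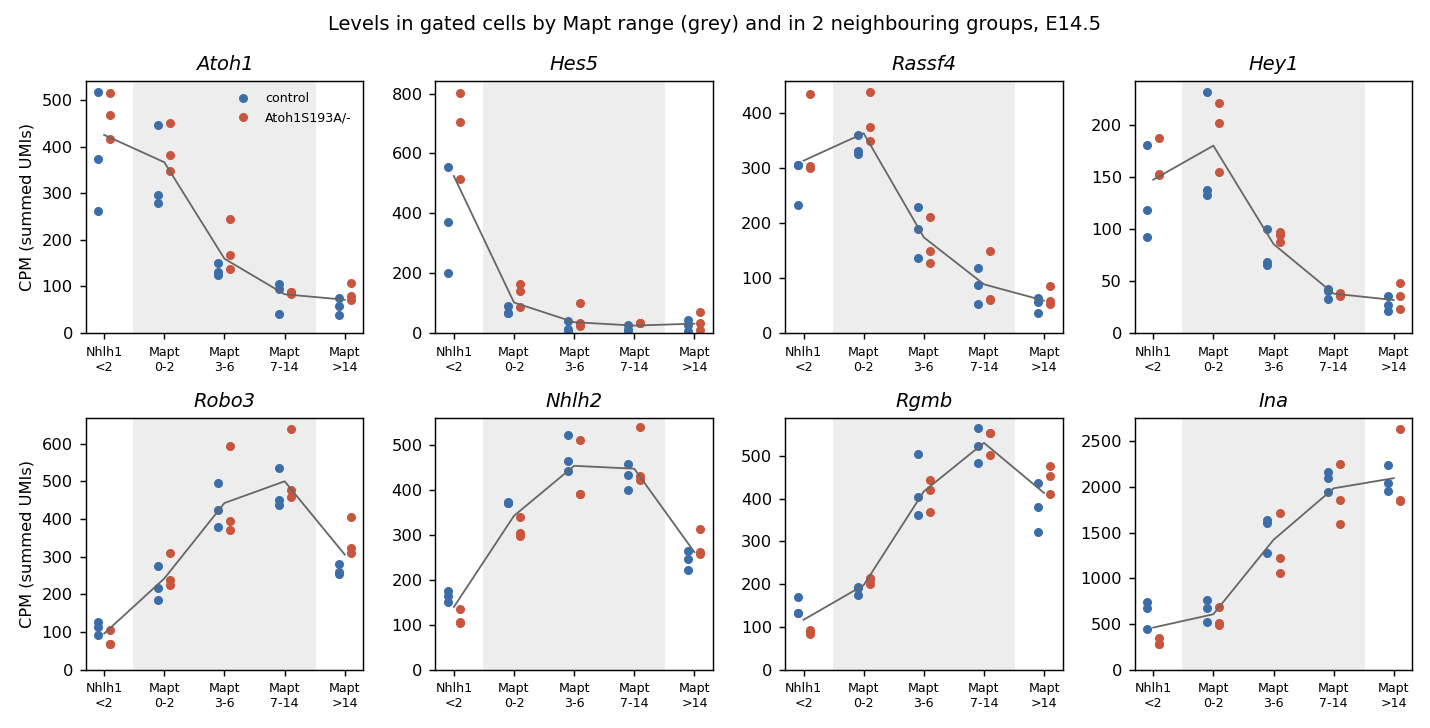
Levels of 8 genes (CPM of summed UMIs, y axis) in gated cells split by Mapt UMIs (grey band) and in cells with fewer than 2 Nhlh1 or more than 14 Mapt UMIs (x axis), each point being 1 E14.5 library and the line the mean of 6. Atoh1, Hes5, Rassf4 and Hey1 go down and Rgmb and Ina go up across the band, whereas Robo3 and Nhlh2 are highest inside it.

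Other genes followed Mapt less. Nhlh2 averaged 343, 455 and 448 CPM in the 3 ranges and was 1.31 times higher at the high than at the low end. Dcc, the netrin receptor gene, averaged 148, 141 and 111 CPM and was lower at the high end in 5 of 6 libraries. Cells without an Atoh1 UMI (696 cells) against those with 5 or more (1049 cells) were ordered in the same way by another gene. Robo3 averaged 565 CPM in the former and 198 CPM in the latter, Ina 2095 and 456 CPM, and Hes5 10.2 and 121 CPM, each in the same direction in 6 of 6 libraries.

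A second division ran along the Hox genes. Members with 2 or more Hoxb5 UMIs (1233 cells) and members with none (1334 cells) were compared by a split chosen after the values had been seen, so no test is given. The share with 2 or more was 31.6%, 49.1% and 38.9% in controls and 37.1%, 43.8% and 58.8% in Atoh1S193A/- libraries, and the genotypes overlapped. Hoxa5 averaged 24.9 ± 5.05 CPM (SD, n = 6) without Hoxb5 and 787 ± 90.2 CPM with it. Hoxc5 averaged 11.7 and 162 CPM and Hoxc4 averaged 69.6 and 436 CPM. Hoxb8 averaged 2.05 CPM in the cells without Hoxb5, and 1.19 to 137 CPM in the libraries of the cells with it, a wide spread between embryos.

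The Hoxb5 split also separated guidance receptors and transcription factors. Higher with Hoxb5 in 6 of 6 libraries were the bHLH factor gene Bhlhe22 (16.3 and 79.5 CPM), the semaphorin receptor genes Nrp2 (16.1 and 58.0 CPM) and Nrp1 (28.3 and 61.3 CPM), the cannabinoid receptor gene Cnr1 (81.7 and 238 CPM) and the homeobox gene Prox1 (85.2 and 160 CPM). Robo3 was at 298 ± 30.6 CPM without Hoxb5 and at 452 ± 87.2 CPM with it. Higher without Hoxb5 in 6 of 6 libraries were the LIM homeobox gene Lhx2 (373 and 94.7 CPM), the rhombic lip bHLH gene Olig3 (148 and 38.0 CPM) and the nuclear receptor genes Nr2f2 (138 and 38.5 CPM) and Nr2f1 (275 and 95.0 CPM). The Eph receptor gene Epha3 (131 and 38.8 CPM) and the neurofilament genes Nefl (724 and 211 CPM) and Nefm (394 and 124 CPM) had the same direction. Nhlh2 and Barhl1 differed by factors of 1.19 and 1.22 only, and Dcc went up in 4 libraries and down in the other 2. Some of these genes also followed Mapt in 6 of 6 libraries, so for them the 2 orders overlap. Between the lowest and the highest Mapt range Bhlhe22 went from 22.9 to 71.8 CPM and Cnr1 from 65.4 to 285 CPM. Epha3 went from 126 to 44.9 CPM.

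**Figure D2:**
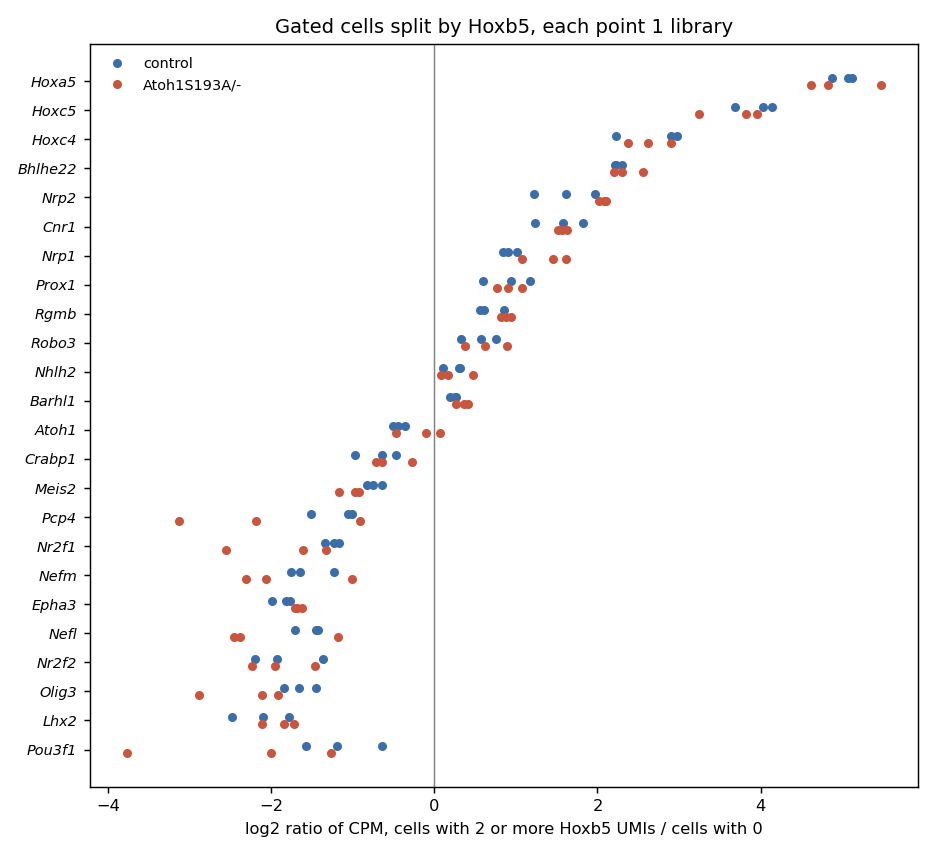
Log2 ratio of CPM (x axis) between gated cells with 2 or more Hoxb5 UMIs and gated cells with none for 24 genes (y axis), each point being 1 E14.5 library. Hox genes, Bhlhe22, Nrp2 and Cnr1 lie to the right of 0 and Lhx2, Olig3, Nr2f2 and Nefl to the left in all 6 libraries, while Nhlh2, Barhl1 and Atoh1 lie near 0.

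To ask what partial loss of Atoh1 function changed in these neurons, UMIs were summed per library and compared by edgeR, with a gene called at a false discovery rate (FDR) under 0.05 and an absolute log2 change over 0.25. Without a term for the litter, 0 of 9666 genes were called (0%), and 329 (3.4%) had an unadjusted p under 0.05. Littermates deviated together, and with the litter in the model 1 gene was called (0.0103%), while 1057 (10.9%) had an unadjusted p under 0.05. DESeq2 without the litter called 5 genes (0.0517%), all lower in Atoh1S193A/- libraries. For 934 genes (9.66%) the libraries of the genotypes did not overlap. By the study's sample records the sexes differ within the first litter, whose control is female and whose mutant is male, and match in the other two. Xist, the X inactivation RNA of female cells, had 9548, 10079 and 11858 UMIs in controls 1 and 3 and Atoh1S193A/- library 3 and 0 to 2 UMIs in the other 3 libraries. By their headers, controls 1 and 2 were counted with Cell Ranger 3.1.0, and control 3 and all mutants with 5.0.1. The version therefore differed together with genotype within litters 1 and 2 and matched in litter 3 only. Within litters 1 and 2 its effect and that of genotype cannot be told apart, with or without the litter in the model.

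Rab15, a small GTPase gene of endosomal trafficking (ENSMUSG00000021062, chr12:76797960-76822908, minus strand, GRCm38), was the gene called with the litter in the model. It was at 64.0, 48.8 and 31.3 CPM in controls 1, 2 and 3 and at 18.1, 19.8 and 13.5 CPM in their littermates. All 3 control libraries were above all 3 Atoh1S193A/- libraries. The log2 change was -1.52 ± 0.25 (SE, edgeR FDR = 0.664) without the litter and -1.48 ± 0.12 (SE, edgeR FDR = 0.0285) with it, and DESeq2 gave an FDR of 9.17e-07. Without litter 3 it was no longer called with the litter in the model (log2 change -1.58, edgeR FDR = 0.0638). Without litter 1, which leaves the litters matched for sex but litter 2 unmatched for Cell Ranger version, it was called (log2 change -1.30, edgeR FDR = 1.7e-05). These fits hold 4 libraries, which leaves little to estimate the spread from. They called 4 and 122 of 9666 genes, against 1 with all litters. With the 4 Cell Ranger 5.0.1 libraries alone the change was -0.93, a comparison of 1 control with 3 mutants that assumes the control to vary like the mutants. The level of Rab15 varied with Mapt, averaging 50.6 CPM in the lowest and 15.4 CPM in the highest Mapt range. Within the lowest range it was at 95.7, 78.3 and 52.8 CPM in controls and at 28.5, 26.2 and 22.1 CPM in Atoh1S193A/- libraries, and the genotypes did not overlap in the middle range either. In the highest range, control 3 at 12.5 CPM was below Atoh1S193A/- library 2 at 14.8 CPM. Rab15 was lower in the mutant of every litter in cells with and without Hoxb5. At E18.5, cells under the same rule had 90, 58 and 28 Rab15 UMIs in controls and 26, 7 and 2 UMIs in Atoh1S193A/- libraries (log2 change -1.49 ± 0.36, SE, edgeR FDR = 0.129), which did not pass. In that comparison 31 of 9655 genes were called (0.321%), 17 of them lower in Atoh1S193A/- libraries (0.176%). The study discusses Rab15 as a changed gene from the same libraries, so its direction here is not independent evidence.

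**Figure D3:**
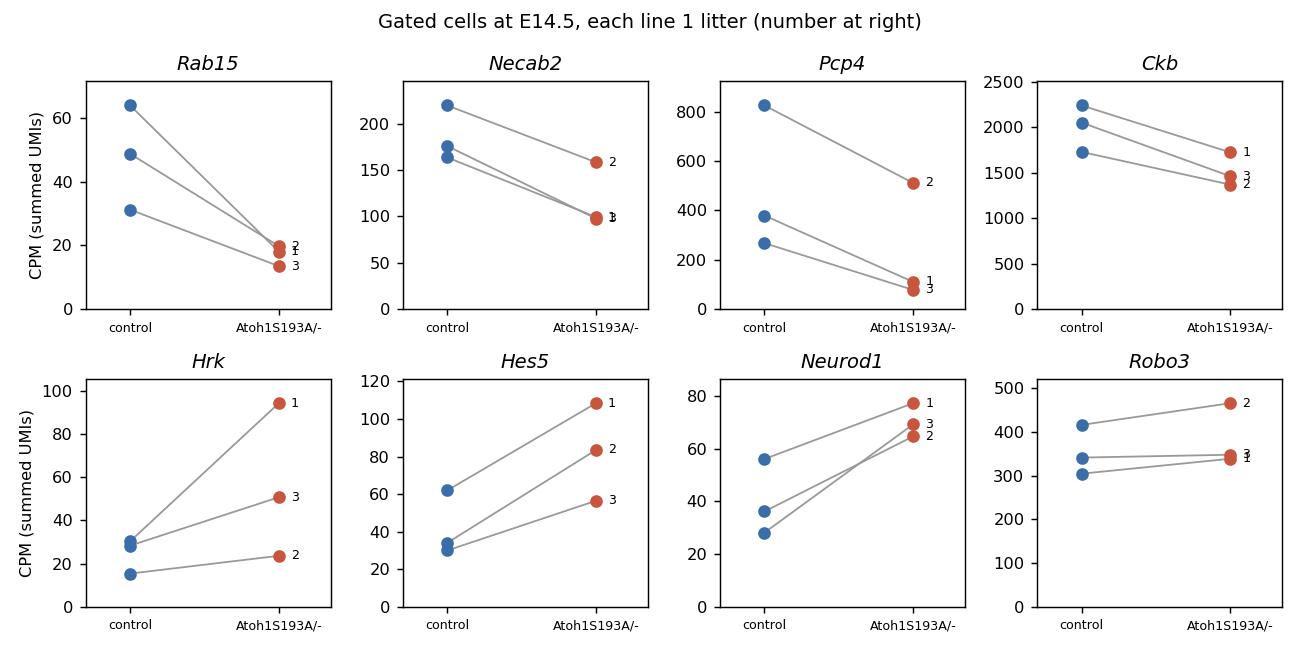
Levels in gated cells at E14.5 (CPM of summed UMIs, y axis) of 8 genes in control and Atoh1S193A/- embryos (x axis), each line joining 1 litter. Rab15, Necab2, Pcp4 and Ckb are lower and Hrk, Hes5 and Neurod1 higher in the mutant of all 3 litters, with Rab15 at 31.3 to 64.0 CPM in controls and 13.5 to 19.8 CPM in mutants, and only Rab15 of these passed edgeR's test with the litter over all gated cells.

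The study discusses Hrk for migrating neurons among others and Pcp4 for multiple cell states, and Necab2 and Cdkn1c are in its gene lists for migrating neurons. None of these genes passed in either edgeR fit over all gated cells, but some passed with the litter in other selections of cells. Across 5 such selections, chosen after seeing the data, Necab2 was called in 5 (edgeR FDR 0.024 to 0.0464), Pcp4 in 4 (edgeR FDR 0.0196 to 0.0427) and Hrk in 1 (edgeR FDR 0.024, cells with 4 or more Nhlh1 UMIs). DESeq2 with the litter over all gated cells called Necab2 (FDR = 4.87e-08) and Pcp4 (FDR = 0.0251). Necab2, a neuronal calcium-binding protein gene, was at 163.7, 219.8 and 176.0 CPM in controls and at 99.4, 158.5 and 97.8 CPM in Atoh1S193A/- libraries, without overlap (log2 change -0.69 ± 0.21, SE, edgeR FDR = 0.997, and 0.053 with the litter). Pcp4, a regulator of calmodulin, was at 378.9, 824.8 and 267.2 CPM in controls and at 110.0, 510.8 and 77.6 CPM in their littermates. It was lower in 3 of 3 litters but differed more between litters than between genotypes (log2 change -1.10 ± 0.70, SE, edgeR FDR = 0.997, and -1.44 with FDR 0.107 with the litter). Single libraries moved this value, to -2.44 without Atoh1S193A/- library 2, -0.49 without control 2, -0.68 without Atoh1S193A/- library 3 and -0.24 in the Cell Ranger 5.0.1 libraries alone (1 control). Pcp4 was also 2.31 times higher in cells without Hoxb5 than in cells with it. Hrk, a pro-apoptotic BH3-only gene, was at 30.3, 15.4 and 28.3 CPM in controls and at 94.2, 23.6 and 50.7 CPM in Atoh1S193A/- libraries, higher in 3 of 3 litters and overlapping between genotypes (log2 change 1.15 ± 0.45, SE, edgeR FDR = 0.997). Without Atoh1S193A/- library 1 the Hrk change was 0.58. With the litter in the model Hrk was called without litter 1 or litter 2 (edgeR FDR = 0.00356 and 0.00258) and not without litter 3 (0.482). These fits of 4 libraries called 122, 99 and 4 of 9666 genes. Cdkn1c had a log2 change of -0.17 ± 0.26 (SE, edgeR FDR = 0.997). The study chose these genes on the same libraries, so their directions are not independent evidence.

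DESeq2 called 4 further genes, which are outside the rule for named genes and are given because the count is small. The cadherin gene Cdh20 was at 8.5, 8.6 and 7.6 CPM in controls and at 3.8, 3.8 and 3.5 CPM in Atoh1S193A/- libraries. Cyp11a1, which encodes a steroidogenic enzyme, was at 15.7, 13.2 and 7.1 CPM in controls and at 2.5, 3.3 and 3.8 CPM in Atoh1S193A/- libraries, and the gene model Gm17322 at 49.2, 38.8 and 29.9 against 14.6, 16.8 and 19.5 CPM. None of these overlapped between genotypes. With the litter in the model, DESeq2 still called Cyp11a1 and Gm17322 and no longer called Cdh20 and AC160336.1. Cdh20, Cyp11a1 and AC160336.1 passed the filter on detection through control cells only, so their direction and the lack of overlap are no separate result. The gene model AC160336.1 was at 442.9 and 566.8 CPM in controls 1 and 2 and between 2.9 and 4.9 CPM in the other 4 libraries. Controls 1 and 2 are the libraries whose headers name Cell Ranger 3.1.0, and control 3, made with 5.0.1 like the mutants, was at 4.9 CPM.

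Atoh1, whose product carries the mutation, was at 286.7, 185.9 and 163.2 CPM in controls and at 288.2, 227.9 and 232.3 CPM in Atoh1S193A/- libraries (log2 change 0.20 ± 0.19, SE, edgeR FDR = 0.997). The level was higher in the mutant of all 3 litters, by little in litter 1, and the genotypes overlapped. The Atoh1 change depended on single libraries, at 0.46 without control 1, 0.10 without Atoh1S193A/- library 1, 0.12 without control 2, 0.06 without control 3 and 0.55 in the Cell Ranger 5.0.1 libraries alone (1 control). With the litter in the model Atoh1 was called without litter 1 (log2 change 0.36, edgeR FDR = 0.0114) and not without litter 2 or 3. The fit without litter 1 holds 4 libraries and called 122 of 9666 genes. The share of cells with no Atoh1 UMI was examined after these values had been seen. With each cell thinned to 10000 UMIs, it was 35.2%, 41.1% and 46.5% in controls and 29.6%, 29.1% and 32.1% in Atoh1S193A/- libraries. No libraries overlapped (difference -10.7 percentage points, exact permutation p = 0.1, the smallest possible, and 0.25 by exact sign changes over the litters, also the smallest possible). Without thinning the shares were 26.9%, 29.8% and 37.1% against 18.7%, 15.5% and 16.8%, and between 2 and 37 cells per library were too shallow to be thinned. In inhibitory cells with 2 or more Gad1 and Gad2 UMIs, which should lack Atoh1, 94.5% to 96.9% in controls and 91.5% to 95.0% in Atoh1S193A/- libraries had no Atoh1 UMI after thinning. Here too the share was lower in the mutant of all 3 litters (95.0% and 93.4%, 96.9% and 95.0%, 94.5% and 91.5%). The difference was -2.19 percentage points (p = 0.25 by exact sign changes over the litters, the smallest possible). Its part in the difference of the Nhlh1+ migrating neurons was not tested. The median depth of the inhibitory cells was 14127 to 17902.5 UMIs, against 16486.5 to 21193 UMIs in the Nhlh1+ migrating neurons.

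The same share was taken within the Mapt ranges, which were set on raw Mapt UMIs, while Atoh1 alone was thinned. In the range of 3 to 6 Mapt UMIs the median depth was 19701.5, 19143 and 16864 UMIs in controls. It was 18166, 22226 and 21298 UMIs in Atoh1S193A/- libraries. A given Mapt count therefore need not mean the same maturity in both genotypes. At 3 to 6 Mapt UMIs, cells without an Atoh1 UMI made up 46.2% to 56.6% in controls and 27.2% to 39.2% in Atoh1S193A/- libraries (difference -17.0 percentage points, exact permutation p = 0.1). At 7 to 14 Mapt UMIs the ranges were 61.5% to 76.2% and 51.9% to 57.3% (difference -11.8 percentage points, exact permutation p = 0.1). At 0 to 2 Mapt UMIs they were 15.8% to 20.6% and 10.0% to 16.7% and overlapped (difference -4.33 percentage points, exact permutation p = 0.3). Here too the share was lower in the mutant of all 3 litters (15.8% and 10.0%, 19.6% and 16.3%, 20.6% and 16.7%). Exact sign changes over the litters gave p = 0.25, the smallest possible. Without thinning, the shares in this range were 12.2% to 18.2% and 5.71% to 8.44%, without overlap (exact permutation p = 0.1). Whether the ranges differ in this from each other was not tested.

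**Figure D4:**
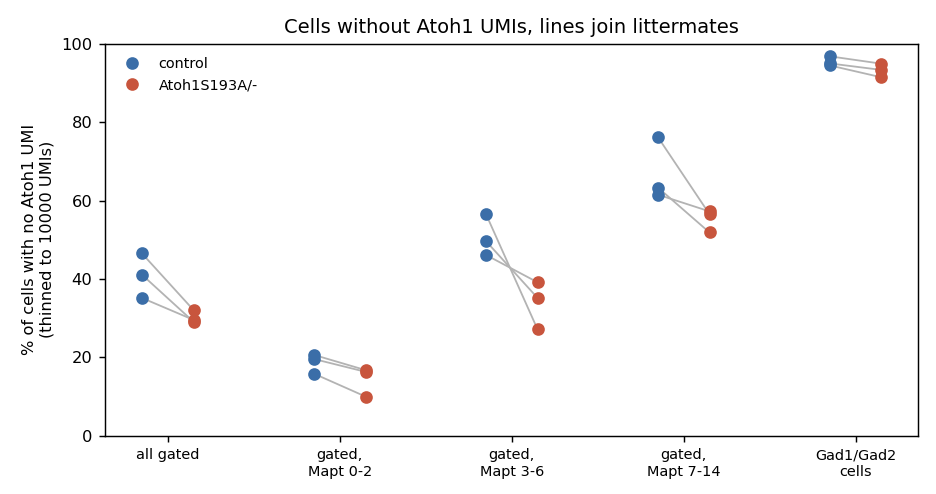
Share of cells with no Atoh1 UMI after thinning to 10000 UMIs (y axis, percent) in all gated cells, in 3 Mapt ranges and in inhibitory cells (x axis), each point being 1 E14.5 library and each line 1 litter. Control and Atoh1S193A/- libraries do not overlap in all gated cells (35.2% to 46.5% and 29.1% to 32.1%), and inhibitory cells lie at 91.5% to 96.9%.

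Of 33 neuronal cytoskeleton and growth cone genes, 30 were lower in Atoh1S193A/- libraries, with 0 called. Of the 33, 5 did not overlap between genotypes, where the background is 9.66% of genes. The median log2 change of the list was -0.10, against 0.0095 over all 9666 genes, of which 4537 were lower. At an unadjusted p under 0.05, 5 of the 33 were lower and 0 higher without the litter, and 17 lower and 0 higher with it, where the background is 3.4% and 10.9% of genes. The 5 were the creatine kinase gene Ckb, the tubulin genes Tubb2b and Tubb3, the reticulon gene Rtn1 and the actin gene Actg1, and these are the 5 that did not overlap between genotypes. Ckb was at 2236.9, 1726.3 and 2048.1 CPM in controls and at 1721.5, 1366.9 and 1459.5 CPM in Atoh1S193A/- libraries (log2 change -0.44 ± 0.11, SE, edgeR FDR = 0.997, and 0.053 with the litter). Tubb3, a neuron-specific tubulin, changed by -0.17 ± 0.06 on the log2 scale (SE, edgeR FDR = 0.997). With all scalings, left-out libraries and cell selections tried, 26 to 32 of the 33 genes were lower. The median ranged from -0.17, without control 1 and in the Cell Ranger 5.0.1 libraries alone, to -0.07 with scaling by library totals, where the median over all genes was 0.04. From the same libraries the study reports cytoskeleton organization among the terms of lower genes, migrating neurons-1 included. The direction of this list is therefore not independent evidence.

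Notch pathway genes had the opposite direction, with 16 of 19 tested members higher in Atoh1S193A/- libraries, a median log2 change of 0.14 and 0 called. At an unadjusted p under 0.05, 3 were higher and 0 lower without the litter, and 6 and 0 with it. Hes5 was at 62.0, 34.1 and 30.0 CPM in controls and at 108.4, 83.5 and 56.5 CPM in Atoh1S193A/- libraries (log2 change 0.95 ± 0.30, SE, edgeR FDR = 0.997, and 0.053 with the litter). The receptor gene Notch1 was at 7.4, 8.2 and 7.5 CPM against 15.1, 15.3 and 11.0 CPM, and the ligand gene Dll1 at 16.9, 12.5 and 8.4 CPM against 20.5, 33.6 and 17.5 CPM. Notch1 and Dll1 did not overlap between genotypes, and Hes5 did. The study reports higher Notch1, Dll1, Hes1 and Hes5 in proliferating progenitors of the same libraries, so the direction of the Notch list is not independent evidence. Of the 19, 3 passed the filter on detection through Atoh1S193A/- cells only, Notch1 among them, so that their direction is no separate result. The other 16 had 13 higher and a median of 0.05. Without control 3 only 10 of the 19 were higher, and without Atoh1S193A/- library 2 only 11 (median 0.05 in both). In the cell cycle list 11 of 14 tested members were higher, with a median of 0.26, and 2 had an unadjusted p under 0.05 without the litter and 5 with it, all higher. Again 3 passed through Atoh1S193A/- cells only, and 8 of the other 11 were higher (median 0.15). That direction depended on the selection of cells. With the rule applied to cells thinned to 10000 UMIs 8 of 12 tested members were lower (median -0.03), and with the highest Scrublet (doublet) scores removed 6 of 11 were higher (median 0.05). Without Atoh1S193A/- library 1 the median of the cell cycle list was 0.07.

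The Hes5 difference was seen along the whole Mapt range, while Hes5 itself was lower at higher Mapt. At 0 to 2 Mapt UMIs Hes5 was at 89.4, 67.7 and 65.9 CPM in controls and at 163.0, 138.9 and 87.0 CPM in Atoh1S193A/- libraries. At 7 to 14 Mapt UMIs it was at 25.7, 9.0 and 8.9 CPM against 35.1, 35.1 and 35.0 CPM. Hes5 is abundant in the neighboring cells with few Nhlh1 UMIs. The summed level of 10 genes of glia and radial glia, which share Notch effectors, was 194 to 221 CPM in controls and 179 to 251 CPM in Atoh1S193A/- libraries. Its part in the Hes5 difference was not tested.

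Guidance genes did not pass the test. Of the Slit, Robo and netrin list 11 of 18 tested members were higher, with a median log2 change of 0.05 and 0 called. With the litter in the model, 5 had an unadjusted p under 0.05, all higher in Atoh1S193A/- libraries. They were Slit1 and Slit2, ligands of Robo receptors, the netrin receptor gene Dcc, Draxin, a secreted repellent, and Srgap2, which acts below Robo receptors. Slit1 was at 13.8, 15.5 and 10.7 CPM in controls and at 17.0, 24.6 and 17.4 CPM in Atoh1S193A/- libraries, without overlap. Robo3 had a log2 change of 0.08 ± 0.17 (SE, edgeR FDR = 0.997). In the list of Eph receptors and ephrins 11 of 14 were higher (median 0.07, 1 lower and 1 higher at an unadjusted p under 0.05), and in that of semaphorins, plexins and neuropilins 10 of 18 (median 0.07, 0 at this p).

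Adhesion genes were split, with 11 of 22 higher and 11 lower. At an unadjusted p under 0.05, 2 were higher and 4 lower without the litter, and 4 and 8 with it. Alcam was at 30.2, 41.3 and 41.2 CPM in controls and at 48.0, 42.7 and 67.0 CPM in Atoh1S193A/- libraries. Among 43 transcription factor genes of the precerebellar lineage and the rhombic lip, 22 were higher and 21 lower (median 0.0060), and 2 were higher and 1 lower at this p. Lhx2 was lower in 3 of 3 litters, at 351.9, 308.8 and 193.6 CPM in controls and at 187.8, 274.6 and 120.3 CPM in their littermates, but overlapped (log2 change -0.58 ± 0.30, SE, edgeR FDR = 0.997). The Lhx2 change was -0.94 without Atoh1S193A/- library 2, -0.33 without Atoh1S193A/- library 3 and -0.05 in the Cell Ranger 5.0.1 libraries alone (1 control). With the litter in the model Lhx2 was called without litter 1 or litter 2 (edgeR FDR = 0.014 and 5.7e-05) and not without litter 3 (0.666). Those fits of 4 libraries called 122, 99 and 4 of 9666 genes. Of 10 tested Hox genes outside the rule 5 were higher and 5 lower, with a median of -0.0051 and 0 at an unadjusted p under 0.05. The bHLH gene Neurod1 was at 56.1, 36.2 and 28.2 CPM in controls and at 77.3, 64.7 and 69.3 CPM in Atoh1S193A/- libraries, without overlap. Hes5, Notch1, Dll1, Neurod1, Slit1, Alcam and Ckb were picked from the lists after their values had been seen.

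The summed markers of other cell types varied between embryos and overlapped between genotypes. Within litters, 3 lists went one way, namely the rostral list, the immediate early list and the microglia list, the last of which summed to at most 1.23 CPM. The summed level of 13 genes of the rostral rhombic lip and cerebellum, which include Lhx2, was 625 to 794 CPM in controls and 572 to 652 CPM in Atoh1S193A/- libraries, and 746 to 913 CPM in all other E14.5 cells. It was lower in the mutant of all 3 litters (794 and 652, 714 and 650, 625 and 572 CPM). The summed level of 8 genes of inhibitory neurons was 182 to 207 CPM in controls and 135 to 273 CPM in Atoh1S193A/- libraries, and 63 to 118 CPM in all other E14.5 cells. Gad2 alone was at 26.4 and 25.7 CPM in Atoh1S193A/- libraries 1 and 3 and at 4.2 to 5.9 CPM in the other 4. Genes of red blood cells summed to 6.09 to 42.2 and 5.54 to 130 CPM, genes of vessels and meninges to 3.31 to 51.2 and 4.10 to 98.8 CPM, and immediate early genes, which respond to dissociation, to 1190 to 1742 and 1348 to 1788 CPM. The immediate early sum was higher in the mutant of all 3 litters (1742 and 1788, 1190 and 1348, 1430 and 1538 CPM). Of 8 tested immediate early genes 4 were higher at an unadjusted p under 0.05 with the litter in the model and 0 without it. Ttr, an abundant choroid plexus transcript, ranged from 57.1 to 3164 CPM over the 6 libraries. With the litter, Ttr was called higher in Atoh1S193A/- libraries when the rule was applied to thinned cells (log2 change 0.92, edgeR FDR = 0.0337). The part of these cells in the results above was not tested.

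Cells that met the same rule at E18.5 were far fewer, with 139, 120 and 106 in controls and 138, 47 and 27 in Atoh1S193A/- libraries, 577 in all. To ask how the population differs later in development, control cells of the 2 stages were compared by edgeR, and 3549 of 9831 genes were called (36.1%), of which 1868 (19%) rose and 1681 (17.1%) fell with age. A gene was tested when 10% of cells of either stage held it, so a gene that passed through 1 stage only was, by the filter itself, in more cells of that stage. Of the 9831 genes 8934 passed in both stages, and 16.9% of these rose and 16.9% fell. Scaling by library totals alone gave 2378 rising and 1158 falling genes. The rule need not pick the same kind of cell at both stages. The rostral rhombic lip and cerebellum list summed to 1080 to 1316 CPM in E18.5 controls, against 625 to 794 CPM at E14.5.

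Hox genes outside the rule were lower at E18.5. Of 10 tested, 4 passed the filter through E14.5 cells only, and all of the other 6 fell (median log2 change -2.04). Over all genes that passed in both stages the median was 0.0036 and 16.9% fell. Among the 6 Hox genes, Hoxc4 fell by 3.64 and Hoxb5 by 2.45 on the log2 scale. Hoxa5, 1 of the 4 that passed through E14.5 cells only, was at 280.3, 453.8 and 330.7 CPM at E14.5 and at 6.5, 11.3 and 8.9 CPM at E18.5, which is given as a description. Of 3 retinoic acid genes that passed in both stages 2 fell, among them Crabp1 (log2 change -2.03 ± 0.15, SE, edgeR FDR = 5.18e-06), which binds retinoic acid. The other 3, with Crabp2, passed through E14.5 cells only. Lhx2 (log2 change -3.74), Pcp4 (-5.39), Necab2 (-4.02) and Cdkn1c (-2.84) fell as well. Hoxb6 and the G protein subunit gene Gng8 were among the 5 largest falls, and Ttr, with its erratic level at E14.5, was another. Hoxb6, Gng8 and Ttr passed the filter through E14.5 cells only.

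Of the marker genes of migration outside the rule, Robo3 fell between the stages and Nhlh2 did not pass the test. Robo3 went from 304.7, 416.3 and 341.5 CPM to 171.8, 250.7 and 196.2 CPM (log2 change -0.87 ± 0.15, SE, edgeR FDR = 0.00155). Nhlh2 was at 425.9, 419.5 and 409.9 CPM at E14.5 and at 336.3, 407.1 and 381.8 CPM at E18.5 and did not pass (log2 change -0.24 ± 0.10, SE, edgeR FDR = 0.0679). Over 13 settings its change ranged from -0.33 to -0.09, and its FDR was under 0.05 in at least 1 of them (lowest 0.00966). The microtubule gene Dcx did not pass either (log2 change -0.04 ± 0.11, SE, edgeR FDR = 0.817). The chemokine receptor gene Cxcr4 fell by 2.16 on the log2 scale, and Unc5c, a netrin receptor gene, rose by 2.94 ± 0.14 (SE, edgeR FDR = 4.32e-07). The Slit receptor gene Robo1 was in 35.5% of E14.5 and 6.3% of E18.5 cells and passed the filter through E14.5 cells only, so its direction is no separate result. Of the 33 genes of the cytoskeleton list 18 fell (54.5%) and 3 rose (9.09%), including a fall of 1.75 for Ina. Of 31 synaptic genes 14 rose (45.2%) and 3 fell (9.68%). All genes of these lists that were tested passed in both stages, and over all such genes 16.9% rose and 16.9% fell. Rbfox3, the neuronal nuclear antigen gene, rose by 1.84 ± 0.09 (SE, edgeR FDR = 5.28e-07).

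Genes of dividing cells were among those higher at E18.5. For the counts below, 16.9% of all genes that passed in both stages rose and 16.9% fell. In the cell cycle list 11 genes passed the filter in both stages, of which 8 rose and 2, Ccnd3 and Cdk4, fell (log2 changes -0.92 and -0.70). The other 14 passed through E18.5 cells only, so their rise is no separate result. The proliferation marker gene Mki67, 1 of these 14, was at 4.1, 4.8 and 11.1 CPM at E14.5 and at 161.2, 100.3 and 156.3 CPM at E18.5. In the list of the rostral rhombic lip and cerebellum 6 genes passed in both stages, of which 3 rose and 3, Lhx2, Irx1 and Irx3, fell (log2 changes -3.74, -1.41 and -2.24). Neurod1, a gene of the cerebellar granule lineage among others, passed in both stages and rose by 4.29 ± 0.28 (SE, edgeR FDR = 2.48e-06). Otx2 and Eomes, also known from the cerebellar lineage, passed through E18.5 cells only, with a UMI in 55.1% and 53.7% of E18.5 cells against 6.96% and 5.3% at E14.5. The same holds for Nts, a neuropeptide gene, Cxcl14, a chemokine gene, and Galnt15, a sugar transferase gene, which were in 28.2%, 38.9% and 29.6% of E18.5 cells and in 0.663%, 0.464% and 0.331% of E14.5 cells. Hrk rose by 2.94 on the log2 scale. How far granule lineage cells or their free RNA among the 365 E18.5 control cells account for these rises was not tested.

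**Figure D5:**
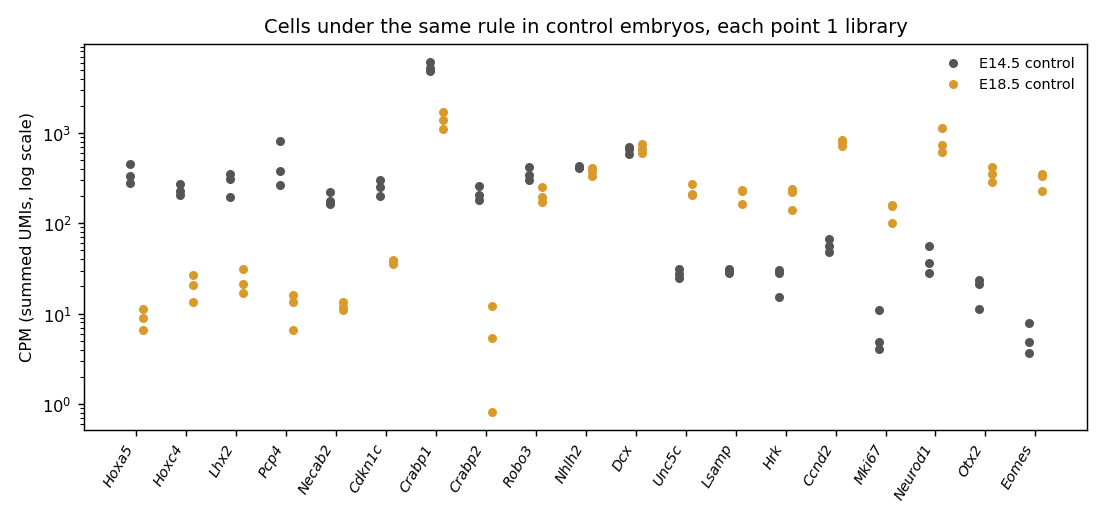
Levels (CPM of summed UMIs, y axis on a log scale) of 19 genes (x axis) in control cells that met the rule at E14.5 and at E18.5, each point being 1 library. Hoxa5, Lhx2, Pcp4 and Crabp2 are lower and Mki67, Neurod1, Otx2 and Eomes higher at E18.5 without overlap, whereas Nhlh2 and Dcx lie close together.

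Whether genotype changed expression differently at the 2 stages was tested as an interaction over 12 libraries. Only 1 of 10088 genes passed (0.00991%), Wnt10a, a gene with few UMIs. Wnt10a passed the filter on detection through E18.5 control cells only, so the direction of its difference is no separate result. With the litter in the model 82 genes passed, Wnt10a and Neurod1 among them. The change of Rab15 with genotype differed by 0.03 ± 0.54 on the log2 scale between the stages (SE, edgeR FDR near 1).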

How the data were processed

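Cells of the 12 embryonic libraries were analysed, of which the 6 of E14.5 carry the main results. Per the methods and file headers, the authors aligned reads to mm10 with the WPRE sequence of the reporter added and counted UMIs with Cell Ranger (5.0.1 in the notes, 3.1.0 in the headers of E14.5 controls 1 and 2). The deposited values are raw UMI counts for 31054 genes per barcode, without normalization.

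Counts were summed over the gated cells of each library and tested with edgeR 4.0.16 in R 4.3.3 (TMM, quasi-likelihood F test, Benjamini-Hochberg adjustment), for genes detected in 10% or more of the gated cells of either group. Genes of the rule and mitochondrial genes were left out of the calls. DESeq2 1.42.0, other filters, left-out libraries and a term for the litter were alternatives. Data for the genotype comparison (9666 genes) were also simulated with a litter effect. Of genes changed 2-fold, the fit without the litter recovered 60% and the fit with it 99%. The fit without the litter called 1 unchanged gene and the fit with it called 28. Calls made with the litter may therefore hold more false ones than their FDR states. When no litter effect was simulated, the fit without the litter recovered 96% and called 17 unchanged genes. Recovery was not split by expression level and rests on the size of litter effect that was simulated. It may not hold for genes with few UMIs, such as Notch1, Dll1, Slit1, Cdh20 and Cyp11a1. The methods pair each mutant with a littermate, and the deviations of same-numbered libraries correlated at 0.409, 0.607 and 0.439, against -0.393 to 0.0072 for other pairs, so the numbers were taken as pairs.

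Permutation tests were exact and two-sided, and SDs cover the spread between libraries. SEs of log2 changes were derived from the edgeR F statistic, as the absolute change over the square root of F. They therefore rest on a variance that is shared between genes. With the litter in the model they leave out the spread between litters. The members and the 25 gene lists were chosen with earlier results of these data known. Named genes were the rule and marker genes, genes called between genotypes, the 2 most abundant of each list, the 5 largest rises and falls between stages with up to 3 per list, and 5 genes from the study's text or gene lists. Every other gene in the text, Gap43, Hey1 and Dcc included, was chosen after its values were seen. Python 3.11.15, scanpy 1.11.5 (Scrublet), numpy 2.4.6, scipy 1.17.1 and pandas 2.3.3 were used. Gene positions are those of GENCODE M21, and promoters are RefSeq's. The result of 1 gene is not reported here.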

Additional observations from a re-analysis of the deposited data

Results flagged for a closer look

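Wnt10a, which encodes a secreted Wnt ligand, was the gene whose genotype change differed between the stages by the interaction test. The change at E18.5 minus that at E14.5 was -5.54 on the log2 scale (edgeR FDR = 0.0442). At E14.5 controls 1, 2 and 3 had 6, 3 and 4 Wnt10a UMIs over all gated cells and the Atoh1S193A/- libraries had 16, 10 and 17. At E18.5 the controls had 35, 21 and 21 UMIs and the Atoh1S193A/- libraries 3, 0 and 0. These are few molecules, 2 libraries were at 0, and the fitted size depends on the prior count. Wnt10a passed the filter on detection through E18.5 control cells only, where it is high, so the direction of this difference is no separate result.

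In 4 of 24 genes followed across settings in the genotype comparison, every litter moved one way at E14.5 and the other way at E18.5. This pattern of signs has no test of its own. Some of the 24 were picked after their E14.5 values had been seen, so their share cannot be set against that of all genes. Over all 10088 genes of the interaction test 664 (6.58%) had this pattern, Wnt10a included. In that test the 4 genes did not pass without the litter (edgeR FDR = 0.406 for Notch1, 0.136 for Neurod1, 0.615 for Tuba1a and 0.31 for Tubb3) and passed with it (0.0343, 0.00132, 0.04 and 0.00461). Notch1 was higher in Atoh1S193A/- cells by a mean of 6.08 CPM at E14.5 and lower by a mean difference of -9.07 CPM at E18.5. Neurod1 differed by 30.3 CPM at E14.5 and by -509 CPM at E18.5. Tuba1a differed by -1689 and 578 CPM and Tubb3 by -383 and 547 CPM. Markers of other cells moved with these values in the E18.5 gated cells. The 13 genes of the rostral rhombic lip and cerebellum list, none of them at 0, summed to 1080 to 1316 CPM in controls and to 634 to 756 CPM in Atoh1S193A/- libraries. Of 10 tested, 8 were lower and 3 were called, namely Cbln1, Eomes and Otx2 (log2 changes -1.55, -1.31 and -1.29, edgeR FDR = 0.00384, 0.0122 and 0.0156). Over all 9655 genes of that comparison 17 were called lower (0.176%). The median log2 change of the list was -0.55, against -0.0043 over all genes. The 30 cell cycle genes summed to 2346 to 3080 CPM and 1302 to 2134 CPM, with 23 of 25 tested lower (median log2 change -0.75). None of these passed edgeR's test (Mki67 log2 change -1.15, FDR = 0.302). The part of these cells in the changes of Notch1 and Neurod1 was not tested. The E18.5 Atoh1S193A/- libraries 2 and 3 held 47 and 27 gated cells.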

How the results depend on the processing

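Between genotypes, the number of genes called moved from 0 to 1 with the litter in the model, 5 with DESeq2 and 4 without the filter on detection. Leaving out 1 library gave 0 to 1 (Gad2 without Atoh1S193A/- library 2, AC160336.1 without control 3). Alternatives chosen after seeing the data, all with the litter, gave 8 (mitochondrial UMIs under 5%), 8 (highest Scrublet scores removed), 14 (cells thinned to 10000 UMIs), 14 (Nhlh1 at 4 or more UMIs), 20 (Mapt ranges matched) and 20 (DESeq2). Leaving out 1 litter gave 4 to 122, with 122 without litter 1, 99 without litter 2 and 4 without litter 3, of which 2 are Xist and Tsix and the sexes differ within litter 1. Rab15, Necab2, Ckb and AC160336.1 were called in all 5 of these cell selections with the litter, and the log2 change of Rab15 ranged from -1.74 to -0.93 over 26 settings. With the litter and without litter 3 Rab15 was not called (edgeR FDR = 0.0638). Over all gated cells the litter changed no other edgeR call at E14.5, whereas with DESeq2 17 genes were gained (among them Necab2, Hes5, Ckb, Neurod1, Pcp4 and Kitl) and 2 lost (AC160336.1 and Cdh20). Signs turned for Cdkn1c (-0.523 to 0.0238 when 1 library was left out, above 0 without Atoh1S193A/- library 1), Robo3 (-0.0939 without Atoh1S193A/- library 2 and -0.0333 without control 1, up to 0.221) and WPRE (-0.166 to 0.246, below 0 without Atoh1S193A/- library 1 or control 2, and -0.058 and -0.0464 with the litter and without litters 1 and 3). The share of gated cells differed by -1.27 to -0.571 percentage points when 1 library was left out and by 0.011 with Cell Ranger 5.0.1 libraries alone (1 control, exact permutation p = 1.0). Between stages, Cell Ranger 5.0.1 libraries (1 E14.5 control, assumed to vary like the E18.5 controls) gave 1599 calls, other settings 2654 to 4555. The interaction gave 82 calls with the litter and 24 with DESeq2. The causes were not tested. Depth limits genes near 1 UMI per cell.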
